A study of Homo sapiens with 16 samples.

Results

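The genes described here encode voltage-gated sodium and calcium channels and potassium channels, with their auxiliary subunits, in SK-N-BE(2) cells, a human neuroblastoma line. Members were the rows of the gene count table whose symbol had a KCN, SCN or CACN channel name and that held at least 10 counts in 4 or more of the 16 libraries. Of 135 rows with such a name, 71 were members, and 64 stayed below the threshold, 15 of them with no count in any library. The table held 63187 genes in all, of which 19731 passed the same count rule and were tested together. Just inside the threshold were CACNG7, with 10 counts in 4 libraries, and KCNK1 and KCNQ3, with 10 counts in 5. Just outside it were CACNG1, KCNA2, KCNK13 and KCNK6, which reached 10 counts in 3 libraries.

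The RNA-seq libraries came from 4 groups of 4. Cells labelled WT were compared with cells transfected with full-length HIF-2α (FL) or with a form that the series design writes as ΔN-CTAD (labelled NCTAD) or Δc-IDR (labelled cIDR). HIF-2α is the hypoxia-inducible transcription factor encoded by EPAS1. All groups were kept at 37 °C in 21% O2 and 5% CO2 with 10% serum, so no group was grown in low oxygen. The labels give neither the vector, the time after transfection nor an empty-vector control, so transfection and HIF-2α cannot be told apart in a comparison with WT. Each replicate number, 1 to 4, is also given as a batch, and each batch holds 1 library of each group. What defines a batch is not given, nor whether libraries came from separate cultures, so p-values measure the spread between these libraries.

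Voltage-gated channels open when the membrane potential changes: sodium channels carry the upstroke of an action potential, calcium channels couple it to calcium entry and secretion, and potassium channels repolarise the cell. Inward rectifiers and tandem-pore (KCNK) channels set the resting potential, and calcium- or sodium-activated potassium channels link ion entry to repolarisation. Auxiliary subunits form no pore of their own and change the trafficking or gating of the pore subunits. Neuroblastoma cells derive from the sympathetic lineage, an excitable lineage, and currents of the ether-a-go-go-related channel KCNH2 are well known in neuroblastoma lines.

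Totals were 38.6 to 56.1 M (mega) estimated counts per library, and the 71 members together took 0.179% to 0.217% of them. EPAS1 was at 13.0 to 28.1 CPM (counts per 1 M counts, with TMM-scaled library sizes) in the WT libraries and at 1313 to 5859 CPM in the 12 transfected ones, as their labels say. The sympathetic markers PHOX2A and HAND2 averaged 539 and 520 TPM (transcripts per 1 M, a length-scaled level). TH, the lowest of the 8 sympathetic markers listed, averaged 3.96 TPM, with 39 to 575 counts. Of 8 markers of other cells, PTPRC, CD3E, PRRX1 and PECAM1, which mark leukocytes, mesenchymal and endothelial cells, had at most 10 counts in any library. The other 4 were detected: the mesenchymal genes DCN and COL1A1 with 299 to 1005 and 80 to 329 counts, endothelial CDH5 with 1 to 49 and epithelial EPCAM with 8 to 43. The 4 libraries of batch 2 stood apart from the other 12 over the whole transcriptome, with 53.6% of the 19731 tested genes different, and this batch is therefore described separately. In GENCODE 29 exons of 27 members overlap a gene on the other strand (KCNAB2 with NPHP4, CACNA1H with TPSG1) and exons of 5 overlap a gene on the same strand. The libraries were stranded, but the strand setting of the counting is not given in the sources used here, so such reads may be mixed.

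The summed level of the channel genes was dominated by few members. Over the 16 libraries the mean TPM of the members summed to 720, of which KCNH2, whose product gives the rapid delayed rectifier current, held 29.0% and the 5 highest members 66.9%. Mean levels were at least 10 TPM in 10 members and at least 1 TPM in 37, and the median was 1.17 TPM. KCNH2 averaged 209 TPM (range 179 to 233). It was followed by KCNT1, a sodium-activated potassium channel, at 83.2 TPM (62.3 to 97.7), and by KCNJ8, the pore subunit of an ATP-sensitive potassium channel, at 81.7 TPM (72.5 to 93.9). The ranges of KCNT1 and KCNJ8 overlapped throughout, so their order is not resolved. CACNG4, which modulates calcium channels and AMPA receptors, stood at 64.6 TPM, and SCN3B, a sodium channel beta subunit, and KCNK3, an acid-sensitive background potassium channel, stood at 43.1 and 42.1 TPM. Next came the calcium channel subunits CACNA2D2 (33.5 TPM) and CACNA2D1 (27.0 TPM) and the Kv beta subunits KCNAB2 (13.1 TPM) and KCNAB1 (10.1 TPM).

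**Figure D1:**
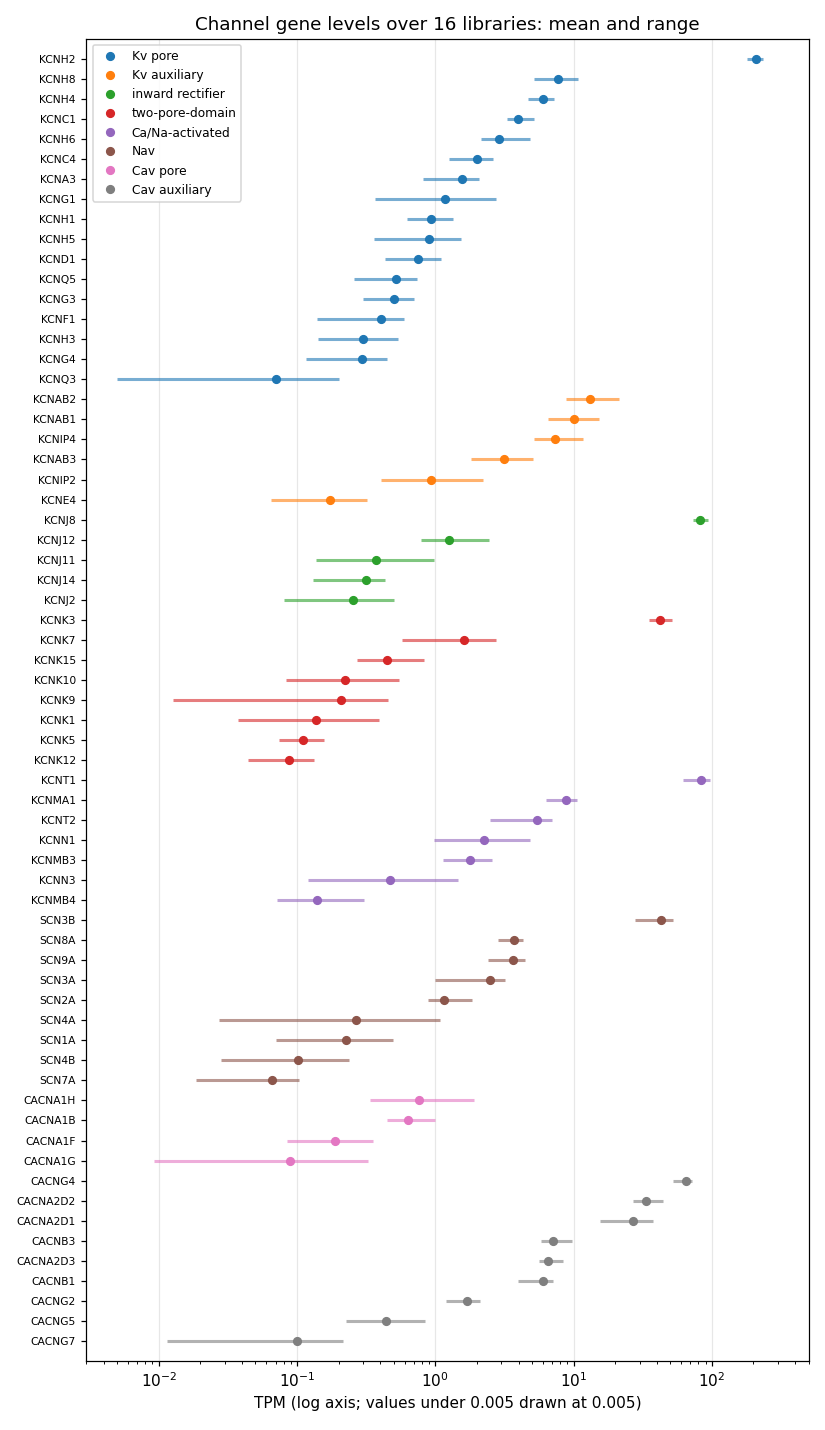
Level of 65 of the 71 channel genes in TPM (log axis), grouped by role and coloured by role group; points are means over 16 libraries and bars run from the lowest to the highest library. KCNH2 is the highest at 209 TPM, and the means of all 4 calcium channel pore genes lie under 1 TPM. In the legend, two-pore-domain stands for the tandem-pore genes.

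Within each role the levels were uneven. Voltage-gated potassium (Kv) pore genes gave 21 members of 40 rows, and after KCNH2 the next were KCNH8 (7.70 TPM) and KCNH4 (5.96 TPM), both of the ELK family. Sodium channel genes gave 11 of 14 rows: the pore genes SCN8A and SCN9A, at 3.73 and 3.62 TPM, did not differ beyond their ranges, and SCN3A followed at 2.50 TPM. The calcium channel auxiliary genes gave 9 of 16 rows and summed to 147 TPM. The 4 calcium channel pore members of 10 rows, CACNA1H, CACNA1B, CACNA1F and CACNA1G, averaged 0.766, 0.637, 0.187 and 0.0889 TPM, and summed to 1.68 TPM. Inward rectifiers gave 5 of 16 rows, Kv auxiliary genes 6 of 12, tandem-pore genes 8 of 15, and calcium- or sodium-activated channels 7 of 12. In the tandem-pore group KCNK3 made up nearly the whole level, since the other 7 members were at 1.62 TPM (KCNK7) or below.

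The first comparison asked how each form of HIF-2α changed the channel genes. No channel gene passed the test in any of the 6 comparisons between groups, fitted with the batch as a block. The quasi-likelihood test of edgeR with Benjamini-Hochberg adjustment over all tested genes called 0 of 71 members in FL against WT, where 0.101% of all genes were called, 0 in NCTAD against WT (0.456% of all genes) and 0 in cIDR against WT (0.481%). It also called 0 of 71 in NCTAD against FL (0% of all genes), in cIDR against FL (0.0304%) and in cIDR against NCTAD (0.00507%). At each of these shares fewer than 1 of 71 genes would be called. At an unadjusted p under 0.05 there were 5, 11 and 10 members in FL, NCTAD and cIDR against WT, where the shares over all genes were 5.04%, 5.86% and 5.34%. Between constructs there were 1, 7 and 4 members, with 3.66%, 3.68% and 2.19% of all genes. DESeq2 called 1 member, KCNAB1 in cIDR against WT, and limma on log2 TPM called 0 in the 6 comparisons. The 3 comparisons with WT share their WT libraries.

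The abundant channels moved little. Among the 10 members with at least 10 TPM, log2 fold changes against WT ran from −0.15 (SCN3B) to 0.10 (KCNAB2) for FL, from −0.26 (KCNAB1) to 0.15 (KCNJ8) for NCTAD, and from −0.30 (KCNAB1) to 0.11 (KCNJ8) for cIDR, with a median SE of 0.07. For KCNH2 the FL, NCTAD and cIDR differences from WT were 0.01, 0.03 and 0.03 on the log2 scale, each ± 0.07 (SE). In bulk RNA, fewer cells with a transcript and less transcript per cell cannot be told apart. Over all 71 members the median log2 fold changes of FL, NCTAD and cIDR against WT were 0.01, 0.05 and 0.04, beside 0.01, 0.01 and 0.01 over all tested genes.

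KCNAB1, a cytoplasmic beta subunit of shaker-type Kv channels, came closest to a call (chr3:156037701-156539138, GRCh38). Its WT libraries of batches 1 to 4 held 23.2, 29.0, 20.5 and 19.3 CPM. The cIDR libraries of the same batches held 18.8, 23.1, 16.6 and 16.1 CPM, lower than WT in each of the 4 batches, although the groups overlap when batches are mixed. The NCTAD libraries held 21.8, 24.4, 15.9 and 15.3 CPM and were also lower in each batch. FL held 19.5, 25.0, 19.9 and 18.9 CPM. The log2 difference from WT was −0.30 ± 0.07 in cIDR (adjusted p = 0.106, edgeR), −0.26 ± 0.07 in NCTAD (adjusted p = 0.243) and −0.13 ± 0.07 in FL (adjusted p = 0.927). The cIDR difference was nearly constant across batches, at −0.31, −0.32, −0.31 and −0.25. It passed the threshold with DESeq2 (−0.31, adjusted p = 0.0141), with only the 8 libraries of the 2 groups (adjusted p = 0.0324) and without FL replicate 1 (adjusted p = 0.0285), and in none of the other alternatives run.

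**Figure D2:**
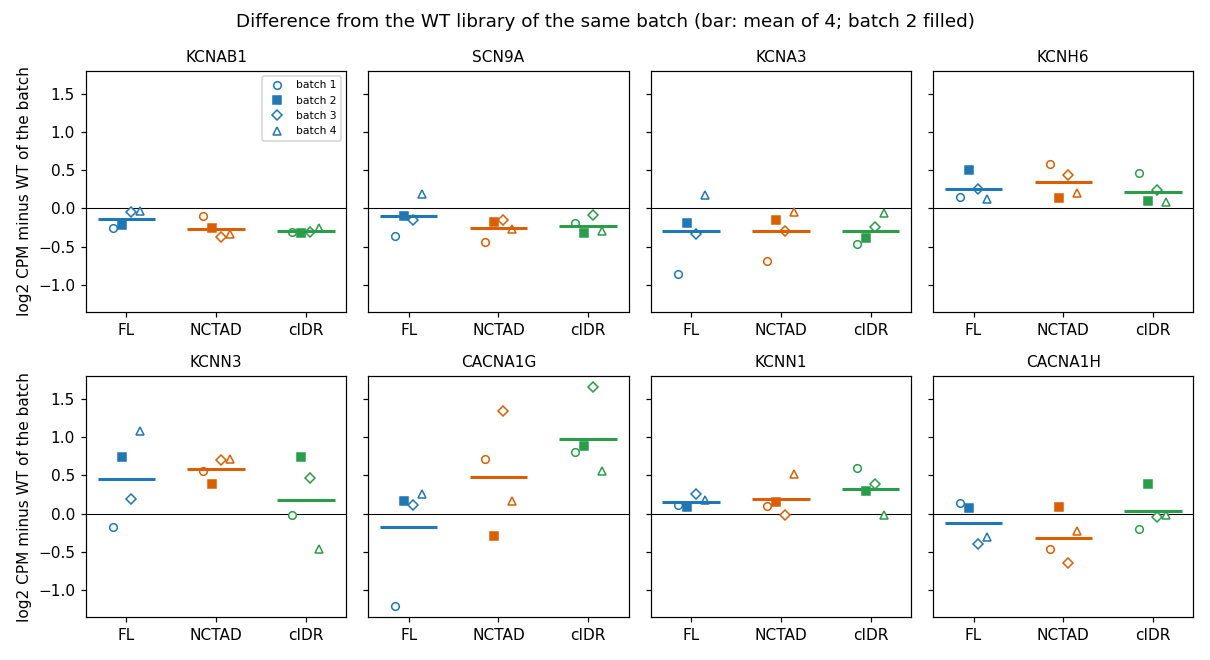
Difference in log2 CPM between each construct library and the WT library of its batch for 8 channel genes; symbols are batches (batch 2 filled), colours are constructs and bars are means over 4 batches. KCNAB1 lies below 0 in all 12 differences and KCNH6 above 0 in all 12, while the low-count genes KCNN3 and CACNA1G scatter over more than 1 log2 unit.

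KCNH6, an ether-a-go-go-related relative of KCNH2, had the opposite sign. WT held 4.97, 7.52, 4.87 and 4.91 CPM in batches 1 to 4, and NCTAD held 7.46, 8.30, 6.63 and 5.64 CPM, above WT in 4 of 4 batches. FL held 5.53, 10.7, 5.80 and 5.33 CPM, and cIDR 6.86, 8.03, 5.78 and 5.21 CPM, also above WT in each batch. None of these differences passed the test: 0.35 ± 0.12 in NCTAD (adjusted p = 0.529, edgeR), 0.27 ± 0.12 in FL (adjusted p = 0.927) and 0.22 ± 0.12 in cIDR (adjusted p = 0.978). SCN9A, the sodium channel of nociceptors and sympathetic neurons, held 22.1, 18.8, 21.3 and 21.0 CPM in WT, 16.3, 16.6, 19.2 and 17.5 CPM in NCTAD, and 19.3, 15.01, 20.1 and 17.1 CPM in cIDR. FL was lower than WT in 3 of 4 batches, with 17.2, 17.6, 19.2 and 23.9 CPM. The SCN9A differences from WT were −0.26 ± 0.09 in NCTAD and −0.22 ± 0.09 in cIDR, neither of them called (adjusted p = 0.597 and 0.833). KCNA3, a shaker-type channel, had −0.30 ± 0.12 in each of FL, NCTAD and cIDR, with adjusted p of 0.927, 0.708 and 0.833.

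The largest estimated changes were in genes with few counts. CACNA1G, a T-type calcium channel pore gene with 2 to 102 counts per library, had 1.08 ± 0.40 in cIDR against WT (4 of 4 batches, adjusted p = 0.686), and SCN4B, a sodium channel beta subunit, had 0.91 ± 0.37 (3 of 4 batches). KCNQ3, with 0 to 18 counts, was the only member whose NCTAD and cIDR libraries lay wholly below the WT libraries, as in 0.122% of all genes, with −1.73 ± 0.65 and −2.00 ± 0.67 and adjusted p of 0.648 and 0.552. Other members with the smallest p in their comparison were KCNN3 (0.54 ± 0.25 in FL and 0.60 ± 0.25 in NCTAD), SCN3A (−0.23 ± 0.10 in FL), KCNJ2 (−0.52 ± 0.26 in FL, −0.69 ± 0.26 in NCTAD and −0.52 ± 0.26 in cIDR), KCNN1 (0.34 ± 0.14 in cIDR) and KCNG3 (−0.60 ± 0.22 in cIDR). In cIDR against NCTAD the T-type pore gene CACNA1H differed by 0.35 ± 0.15, higher in 4 of 4 batches, and KCNK7, a tandem-pore gene that gives no current on its own, by −0.43 ± 0.19, lower in 4 of 4.

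Counted within batches, 5 members were above WT in 4 of 4 batches in FL and 4 were below, where 5.29% and 3.96% of all tested genes were. In NCTAD 8 were above and 9 below (8.73% and 6.66% of all genes), and in cIDR 8 and 8 (10.2% and 7.38%). The hypoxia genes measured beside them, 14 genes that HIF proteins are known to induce, had 1, 7 and 9 members called higher in FL, NCTAD and cIDR against WT and 0 lower. Of all tested genes 0.071%, 0.416% and 0.451% were called higher and 0.0304%, 0.0405% and 0.0304% lower.

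The comparison of batch 2 with batches 1, 3 and 4 was of another size. In batch 2, 37 of the 71 channel genes were higher and 12 were lower, and 22 did not pass the test. Over all tested genes 27.2% were higher and 26.5% were lower, so 69.0% of the channel genes and 53.6% of all genes were called in either direction. The split between directions was 37 to 12 in the channel genes and near even over all genes. The median log2 difference was 0.29 over the members and 0.03 over all tested genes. The threshold of 4 libraries equals the size of a batch, so a member that passed only through batch 2 had to differ. With members restricted to the 60 that had 10 counts in every library, a count added after the data were seen, 33 were higher (55.0%) and 11 lower (18.3%), beside 26.7% and 32% of the 15860 genes with that depth. With limma on log2 TPM, which tested 66 of the members, the split was 26 higher to 4 lower with a pseudocount of 1, where 23.9% of all genes were higher and 12.9% lower, and 23 to 4 with 0.1 (23% and 13%).

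**Figure D3:**
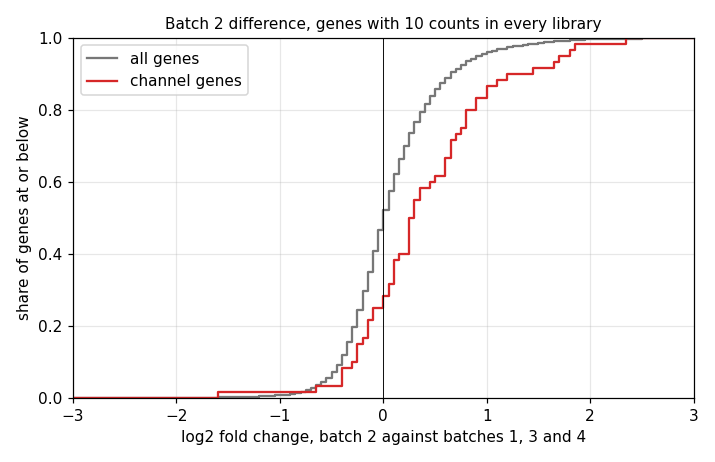
Cumulative share of genes by log2 fold change of batch 2 against batches 1, 3 and 4, for the 60 channel genes (red) and all 15860 genes (grey) with 10 counts in every library. The channel gene curve lies to the right of the grey curve over most of its length; 55.0% of these members and 26.7% of all genes were called higher.

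The 4 libraries of batch 2 share their batch, so a test over libraries does not replicate the batch. When the counts were summed per batch and batch 2 was set against the other 3 sums, 23 members were higher and 1, KCNF1, was lower, where 13.7% and 10.9% of all genes were called. All 24 were among the 49 of the test over libraries. In 22 members all 4 libraries of batch 2 lay above all of the other 12, and in 2, KCNF1 and KCNK3, they lay below, with 14% and 14.9% of all genes doing so. CACNG7 reached 10 counts in the libraries of batch 2 only, and without it, a count added after the data were seen, there were 36 members higher over libraries, 22 on sums per batch and 21 above all other libraries. Against single batches, a choice made after the data were seen, 33 members were higher and 9 lower than in batch 1, where 21.8% of all genes were higher and 23.8% lower. For batch 3 the counts were 28 and 8 (23.3% and 23.5% of all genes), and for batch 4 they were 30 and 8 (22.2% and 23.3%). Higher than each of the 3 batches were 23 members, and lower than each were 4: CACNA2D3, KCNF1, KCNK3 and SCN3B. Of all genes 14.9% were higher and 16.6% lower than each of the 3 batches.

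**Figure D4:**
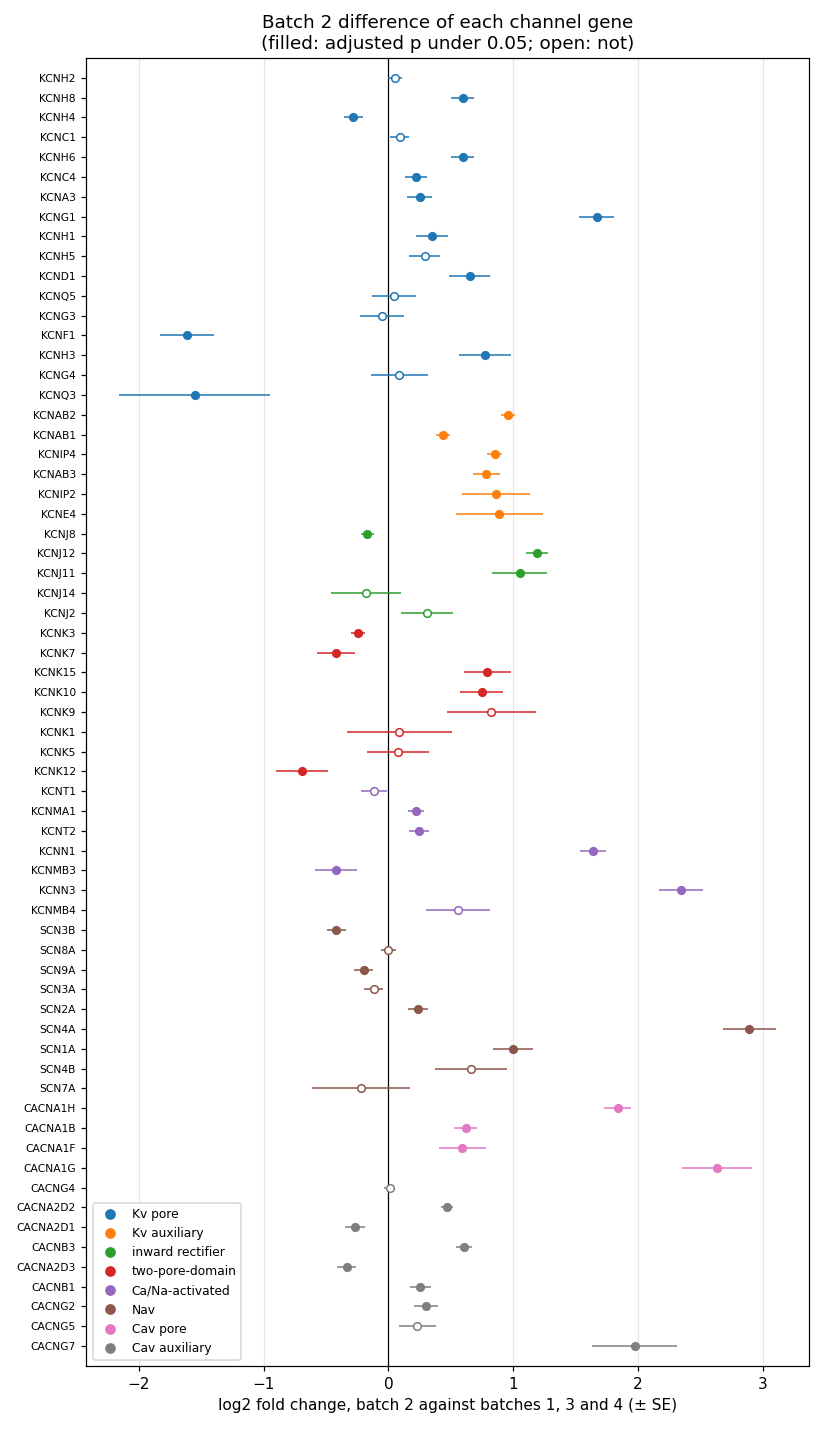
Log2 fold change of batch 2 against batches 1, 3 and 4 for 65 of the 71 channel genes, with SE, grouped by role and ordered by level within a role; filled points passed an adjusted p of 0.05. All 6 Kv auxiliary genes and all 4 calcium channel pore genes lie to the right of 0, and KCNF1 and KCNQ3 are farthest to the left.

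The counts by role below stand beside the 27.2% higher and 26.5% lower of all tested genes, and no role was tested against the others. Of the 21 Kv pore genes, 11 were higher in batch 2 (52.4%), 3 were lower (14.3%) and 7 were not called. KCNG1 encodes a silent Kv subunit, which carries current only in channels shared with other pore subunits. It held 2.38, 2.46, 2.69 and 2.84 CPM in the WT, FL, NCTAD and cIDR libraries of batch 2 and 0.459 to 1.02 CPM in the other 12 libraries. The 4 libraries were thus all above the rest, by 1.67 ± 0.14 on the log2 scale (adjusted p = 1.73e-07, edgeR). KCNF1, also a silent subunit, was lower, with 0.204, 0.292, 0.241 and 0.246 CPM against 0.473 to 0.948 and a log2 difference of −1.61 ± 0.22 (adjusted p = 1.8e-05). KCNF1 had only 11 to 15 counts in each library of batch 2.

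Among the other Kv pore genes, smaller differences were found in KCNH8 (35.2, 37.5, 37.1 and 38.1 CPM against 17.3 to 28.6; 0.60 ± 0.09) and KCNH6 (0.59 ± 0.09). KCNH3 and KCND1 were higher by 0.77 ± 0.21 and 0.65 ± 0.17. KCNH1, KCNA3 and KCNC4 were higher by 0.35, 0.25 and 0.22, and KCNH4 and KCNQ3 were lower by −0.28 ± 0.08 and −1.55 ± 0.60. On sums per batch the calls of KCNH3 (adjusted p = 0.0905), KCNH1 (0.113), KCNA3 (0.226), KCNC4 (0.253) and KCNQ3 (0.0718) were lost. The KCNH4 call was lost without NCTAD replicate 2 (adjusted p = 0.0637) or batch 1 (adjusted p = 0.0632), on sums per batch (0.132) and with limma on log2 TPM (−0.18 and −0.20, adjusted p = 0.0997 and 0.0951). The most abundant member, KCNH2, was not called, with 467, 501, 463 and 486 CPM in batch 2 inside the range of 429 to 533 CPM elsewhere and a log2 difference of 0.06 ± 0.06 (adjusted p = 0.423). It passed the threshold only when batch 1 was left out (0.10, adjusted p = 0.0283). KCNC1, KCNG3, KCNG4, KCNH5 and KCNQ5 were not called either.

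All 6 Kv auxiliary genes were higher in batch 2. KCNAB2, a beta subunit with an aldo-keto reductase fold, held 43.5, 47.9, 46.6 and 53.5 CPM, against 22.2, 25.0 and 26.6 CPM as the lowest, median and highest of the other libraries (0.95 ± 0.06, adjusted p = 3.7e-09). KCNIP4, a calcium-binding partner of A-type Kv channels, held 15.4, 17.3, 17.4 and 17.7 CPM against 8.17, 9.51 and 10.2 CPM (0.85 ± 0.06). In both genes the batches did not overlap, and the 12 other libraries stayed within a narrow band. KCNAB1 was higher by 0.44 ± 0.06 and highest in batch 2 within each of the 4 groups, although 23.1 CPM in cIDR replicate 2 fell below 23.2 CPM in WT replicate 1. KCNAB3 (0.78 ± 0.11), KCNIP2 (0.86 ± 0.27) and KCNE4 (0.89 ± 0.35) completed the group, the last of them with few counts and an adjusted p of 0.0432. KCNIP2 and KCNE4 overlapped between batch 2 and the rest, and on sums per batch both calls were lost (adjusted p = 0.0964 and 0.0572), which left 4 of the 6.

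**Figure D5:**
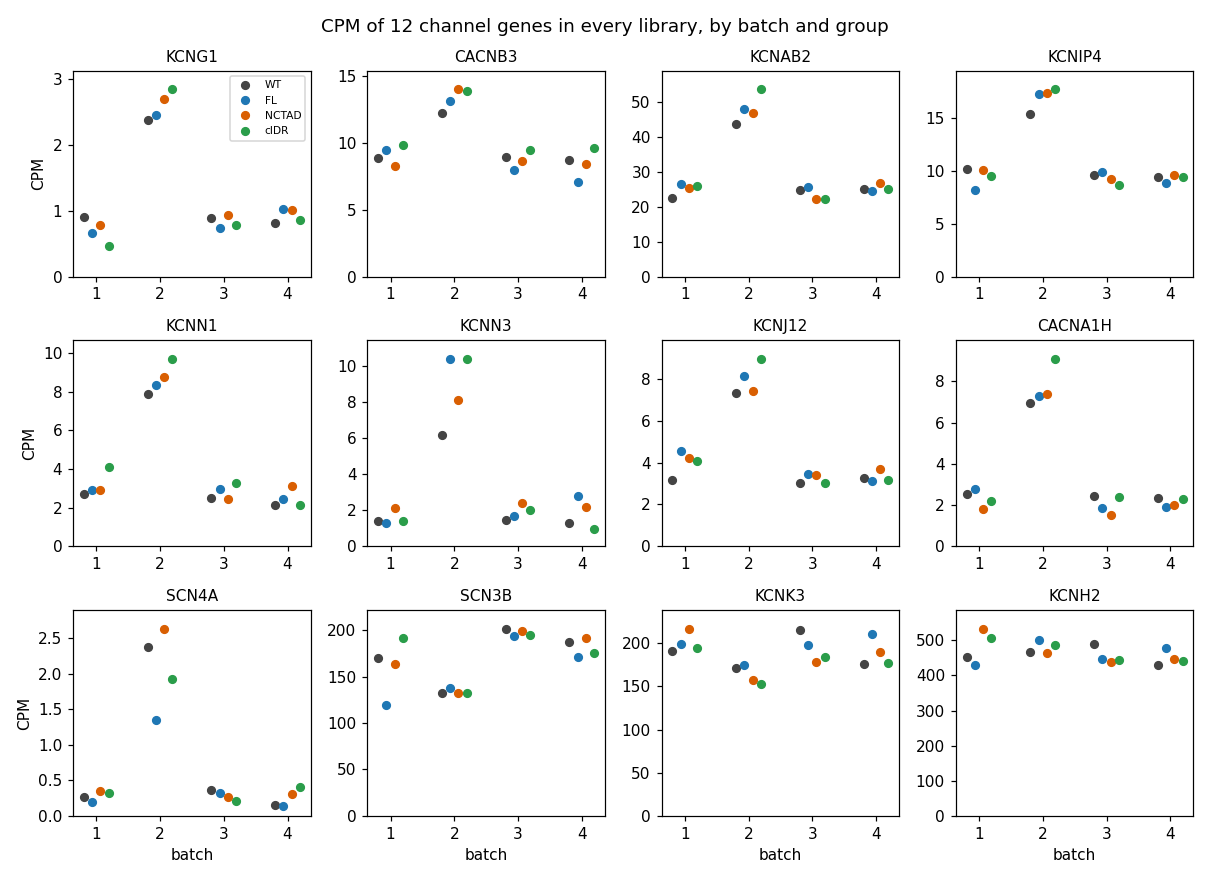
CPM (linear axis from 0) of 12 channel genes in each of the 16 libraries, by batch (x axis) and group (colour). In the first 9 genes all 4 libraries of batch 2 lie above the other 12, SCN3B and KCNK3 are lower in batch 2, and KCNH2 overlaps.

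Among calcium- and sodium-activated potassium channels 4 genes of 7 were higher (57.1%), 1 lower (14.3%) and 2 not called. The small-conductance channels, which produce the afterhyperpolarisation, differed most. KCNN1 held 7.89, 8.36, 8.78 and 9.70 CPM against 2.13, 2.81 and 4.13 CPM (1.64 ± 0.10, adjusted p = 8.81e-09). KCNN3 held 6.19, 10.3, 8.10 and 10.4 CPM against 0.928, 1.55 and 2.80 CPM (2.34 ± 0.18, adjusted p = 6.13e-08). Neither gene overlapped between batch 2 and the rest. The large-conductance channel KCNMA1 and the sodium-activated KCNT2 were higher by 0.22 ± 0.06 and 0.25 ± 0.08 and overlapped, and both calls were lost in alternatives: KCNMA1 without batch 1 (0.09, adjusted p = 0.0883) and on sums per batch (0.449), KCNT2 without WT replicate 2 (adjusted p = 0.0657) or FL replicate 2 (0.114), on sums per batch (0.366) and with limma on log2 TPM (0.0814 and 0.0876). KCNMB3, a beta subunit of KCNMA1, was lower by −0.42 ± 0.17 (adjusted p = 0.046), a call lost in 21 of the alternatives run. KCNT1 and KCNMB4 were not called. The called members CACNB1, CACNG2, CACNG7, KCNC4, KCND1, KCNE4, KCNH1, KCNH3, KCNIP2, KCNK10 and SCN1A fall outside the rule for named genes and are named, after their values were seen, to describe the 49 calls more fully.

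Inward rectifiers gave 2 of 5 genes higher, 1 lower and 2 not called. KCNJ12, a strong inward rectifier, held 7.36, 8.17, 7.44 and 8.96 CPM against 3.03, 3.34 and 4.58 CPM (1.19 ± 0.09, adjusted p = 3.36e-08). KCNJ12 has a near-identical copy, KCNJ18, with which reads can be shared, so its level is uncertain. The ATP-sensitive pore genes moved apart: KCNJ11 was higher by 1.05 ± 0.22 from a low level (adjusted p = 0.052 with limma on log2(TPM + 0.1)), and KCNJ8, the abundant one, was lower by −0.17 ± 0.05 (adjusted p = 0.0154). The KCNJ8 call was lost without WT replicate 2 (adjusted p = 0.0533) or NCTAD replicate 2 (adjusted p = 0.11), on sums per batch (0.188) and with limma on log2 TPM (−0.077 and −0.078, adjusted p = 0.391 and 0.392). KCNJ2 and KCNJ14 were not called. Of the 8 tandem-pore genes, with shares near those over all genes, 2 were higher (25.0%), KCNK15 (0.79 ± 0.19) and KCNK10 (0.75 ± 0.17), and 3 were lower (37.5%): KCNK12 (−0.69 ± 0.21), KCNK7 (−0.42 ± 0.15) and KCNK3. On sums per batch the calls of KCNK10 (adjusted p = 0.0711) and KCNK12 (0.107) were lost. The KCNK7 call was lost when any library of batch 2 was left out (adjusted p from 0.0586 to 0.13), without cIDR replicate 4 (0.0505) and without batch 1, 3 or 4 (0.058 to 0.0886), with DESeq2 (0.0966), without a filter on low counts (0.155) and on sums per batch (0.194). KCNK3 held 171, 174, 157 and 153 CPM in batch 2 and 176, 193 and 217 CPM as the lowest, median and highest elsewhere. The 2 sets did not overlap, and the difference was −0.25 ± 0.05 (adjusted p = 0.00153), with an adjusted p of 0.0688 on sums per batch and of 0.0665 and 0.0688 with limma on log2 TPM (−0.16 and −0.16). KCNK1, KCNK5 and KCNK9 were not called.

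Sodium channel genes had 3 of 11 members higher (27.3%, as over all genes), 2 lower (18.2%) and 6 not called. SCN4A, the skeletal muscle channel, held 2.38, 1.34, 2.63 and 1.93 CPM in batch 2 against 0.140, 0.287 and 0.408 CPM, and 69 to 131 counts against 7 to 18 (2.89 ± 0.21, adjusted p = 3.81e-08). This was the largest difference of any member, with the sets of libraries fully apart. SCN1A and SCN2A, sodium channels of central neurons, were higher by 1.00 ± 0.16 and 0.24 ± 0.08. SCN2A overlapped, and its call was lost on sums per batch (adjusted p = 0.305). SCN3B held 132, 138, 133 and 132 CPM against 120, 189 and 202 CPM and was lower by −0.42 ± 0.07 (adjusted p = 0.000258). Its overlap came from FL replicate 1, at 120 CPM, and on sums per batch its adjusted p was 0.0582. SCN9A was lower by −0.20 ± 0.07 (adjusted p = 0.0357), a call lost in 14 of the alternatives run, 7 of them without a single library, and on log2 TPM its difference was 0.17 and 0.21 (pseudocounts of 1 and 0.1) and not called. SCN3A, SCN4B, SCN7A and SCN8A were among those not called.

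All 4 calcium channel pore genes were higher in batch 2. CACNA1H, a T-type channel that opens near the resting potential (chr16:1153121-1221772, GRCh38), held 6.95, 7.31, 7.42 and 9.08 CPM. Elsewhere its lowest, median and highest values were 1.54, 2.25 and 2.79 CPM, and the difference was 1.84 ± 0.11 (adjusted p = 3.89e-09). CACNA1G, of the same T-type family, was higher by 2.63 ± 0.28, with 38 to 102 counts in batch 2 and 2 to 19 in the other libraries. CACNA1B, the N-type channel of nerve terminals, was higher by 0.62 ± 0.09 and did not overlap. CACNA1F was higher by 0.59 ± 0.19, a call lost without cIDR replicate 2 (adjusted p = 0.0919), without batch 3 (0.069) and on sums per batch (0.145). Even in batch 2 the highest library reached 1.91 TPM for CACNA1H and less than 1 TPM for the other 3.

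The 9 calcium channel auxiliary genes gave 5 higher (55.6%), 2 lower (22.2%) and 2 not called. CACNA2D2, which promotes surface expression of the pore, held 130, 145, 142 and 143 CPM against 93.3, 99.0 and 111 CPM (0.47 ± 0.05, adjusted p = 1.03e-06). CACNA2D1 and CACNA2D3, of the same family, were lower by −0.27 ± 0.08 and −0.33 ± 0.07. The CACNA2D1 call was lost without batch 3 (adjusted p = 0.123) or batch 4 (adjusted p = 0.0797), on sums per batch (0.293) and with limma on log2 TPM (−0.17 and −0.17, adjusted p = 0.292 and 0.296). The CACNA2D3 call was lost on sums per batch (adjusted p = 0.0708). CACNB3, a cytoplasmic beta subunit, held 12.3, 13.1, 13.99 and 13.9 CPM against 7.09, 8.80 and 9.83 CPM (0.60 ± 0.06), and CACNB1 was higher by 0.25 ± 0.08. CACNG2 was higher by 0.30 ± 0.10, CACNG7 by 1.97 ± 0.34 with 13 to 22 counts in batch 2 and at most 7 elsewhere, so that it passed the count rule only through batch 2, and CACNG4 and CACNG5 were not called. CACNB1 and CACNG2 overlapped, and on sums per batch their calls were lost (adjusted p = 0.134 and 0.107).

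An interaction of construct and batch 2 asked whether the construct effect differed in that batch. It rests on 1 WT library of batch 2, so a count of 0 does not show that the groups shared the pattern. It called 0 of 71 members, with 0.0355% of all genes called, and DESeq2 called 0 as well. The median of the FL term of the interaction was 0.14 on the log2 scale over the members and −0.0095 over all genes. The NCTAD and cIDR terms enter the test but not these medians. At an unadjusted p under 0.05 there was 1 member, KCNK9, where 1.24% of all genes passed. Of the 71 members, 26 were highest in batch 2 within each of the 4 groups and 5 were lowest in each, where 18.6% and 18.4% of all genes were.

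Other genes measured beside the channels also differed in batch 2, and their part in the channel results was not tested. Of 31 tested genes that act with these channels (41 listed), 11 were higher and 10 lower, where 27.2% and 26.5% of all tested genes were. Among them STAC2, an adaptor of calcium channels, was higher by 3.25 ± 0.16, the axon initial segment scaffolds ANK3 and SPTBN4 by 1.00 ± 0.08 and 0.68 ± 0.05, and ABCC9, the sulfonylurea receptor that pairs with KCNJ8, by 0.88 ± 0.07. The scaffold AKAP5 was lower by −0.99 ± 0.08 and NETO2 by −0.39 ± 0.06. REST, the repressor of many neuronal channel genes, was at 0.141 TPM on average and was not called (−0.19 ± 0.24). In the construct comparisons the only call in this list was FGF11, an intracellular partner of sodium channels, higher in cIDR against WT by 0.47 ± 0.09 (adjusted p = 0.0321).

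Of the 14 hypoxia genes 12 were higher in batch 2 and 0 lower, where 27.2% and 26.5% of all tested genes were. The median log2 difference of the 14 was 1.08. Their summed level ran from 246 to 1022 TPM and averaged 847 TPM in batch 2 and 331 TPM elsewhere. Of the 8 sympathetic markers 4 were higher, 2 lower and 2 not called. TH and DBH, enzymes of noradrenaline synthesis, were higher by 2.14 ± 0.12 and 0.69 ± 0.05, and GATA3 was lower by −0.81 ± 0.05. Of 8 markers of other cells 4 could be tested and 3 were higher: COL1A1 by 1.31 ± 0.11, DCN by 0.87 ± 0.06 and CDH5 by 2.22 ± 0.34. Their summed level was 8.42 to 22.8 TPM over the libraries, 20.8 TPM on average in batch 2 and 12.3 TPM in the rest, nearly all of it DCN, while PTPRC, CD3E, PRRX1 and PECAM1 stayed near 0. Depth in batch 2 was 47.8 to 55.3 M counts, inside the range of the other libraries.

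The promoters of 4 members that were higher in batch 2 are shown, those with the smallest adjusted p (edgeR) among members with a RefSeq window. Windows of the hypoxia genes were not counted separately. Each is the 250 bases before the RefSeq start of the gene on GRCh38.p14, written 5′ to 3′ on the strand of the gene, with any match to the core of a hypoxia response element (ACGTG or GCGTG, either strand) in capitals.
KCNAB2 (chr1:5992426-5992675, plus strand): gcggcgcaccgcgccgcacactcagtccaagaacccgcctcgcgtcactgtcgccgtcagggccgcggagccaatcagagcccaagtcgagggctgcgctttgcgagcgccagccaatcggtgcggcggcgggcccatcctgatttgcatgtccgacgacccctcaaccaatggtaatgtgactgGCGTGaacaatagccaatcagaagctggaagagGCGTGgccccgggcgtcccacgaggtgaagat
KCNIP4 (chr4:21948773-21949022, minus strand): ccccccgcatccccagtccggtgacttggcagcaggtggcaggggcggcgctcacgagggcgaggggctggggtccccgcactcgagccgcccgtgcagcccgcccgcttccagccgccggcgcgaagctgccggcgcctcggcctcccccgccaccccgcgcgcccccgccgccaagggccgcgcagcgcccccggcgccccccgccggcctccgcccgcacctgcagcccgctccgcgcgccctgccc
KCNN1 (chr19:17966857-17967106, plus strand): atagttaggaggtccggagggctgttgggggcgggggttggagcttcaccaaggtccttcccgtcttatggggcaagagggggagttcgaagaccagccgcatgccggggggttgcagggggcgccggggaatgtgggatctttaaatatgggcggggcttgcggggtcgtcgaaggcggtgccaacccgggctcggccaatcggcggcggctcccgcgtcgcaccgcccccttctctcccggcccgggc
KCNN3 (chr1:154870282-154870531, minus strand): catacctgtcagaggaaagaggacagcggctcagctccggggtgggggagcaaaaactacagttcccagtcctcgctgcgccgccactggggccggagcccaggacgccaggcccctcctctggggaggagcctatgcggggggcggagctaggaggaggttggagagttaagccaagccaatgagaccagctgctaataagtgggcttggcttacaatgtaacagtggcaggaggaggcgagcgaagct
KCNAB2 held 2 matches, both GCGTG, and the windows of KCNIP4, KCNN1 and KCNN3 held 0. RefSeq windows were found for 45 of the 71 members. Among all 27305 windows of this length, 43.1% held a match on either strand, 18.7% an ACGTG and 31.9% a GCGTG, and the ACGTG and GCGTG counts can overlap within a window. Of the members 12 of 45 held one (26.7%). By batch 2 result the counts were 6 of 22 among members higher, 4 of 9 among members lower and 2 of 14 among those not called.

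For scale, the same contrast was computed for the other batches. Batch 1 against the other 3 gave 6 members higher and 15 lower (14.8% and 9.6% of all genes), batch 3 gave 3 and 10 (7.58% and 8.13%), and batch 4 gave 3 and 17 (7.19% and 6.57%). Each of these references contains batch 2, and on sums per batch each contrast called 0 members (edgeR, with 4, 0 and 0 members at an unadjusted p under 0.05 for batches 1, 3 and 4). Without batch 2, batches 3 and 4 also called 0 (edgeR, with 11 and 6 at an unadjusted p under 0.05). Batch 3 gave 7 without NCTAD or cIDR replicate 3, and batch 4 gave 12, 12 and 13 without FL, NCTAD and cIDR replicate 4. Batch 1 without batch 2 differed from batches 3 and 4 in 8 members, 2 higher and 6 lower (6.64% and 5.41% of all genes). CACNG4 was among the higher ones (0.25 ± 0.05), and the lower ones were SCN3A, KCNMA1, CACNA2D1, KCNT2, KCNH5 and KCNJ2.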

How the data were processed

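Per the labels' protocols, 250 ng of RNA went into each stranded library after poly(A) selection, with 13 cycles of PCR. The submitters' processing notes name fastp, STAR, Salmon, featureCounts and GRCh38, without versions. The deposited values were estimated counts per gene, unscaled, and TPM, both from Salmon, per the file names. Columns were matched to samples by library name. These names read BE2c for the line, CTRL for the samples titled WT and WT for those titled FL; groups follow the sample titles. The estimated counts were rounded to whole numbers, which changed 15.5% of them. Genes with at least 10 counts in 4 libraries were tested with edgeR 4.0.16 in R 4.3.3 (quasi-likelihood test, two-sided, TMM, group and batch in 1 model, Benjamini-Hochberg over 19731 genes, call at adjusted p under 0.05). The batch block was the main fit because the labels give the replicate number as a batch. Deviations from group means correlated with a mean r of 0.305 (0.0641 to 0.708) between libraries of the same number and −0.0939 between others. The biological coefficient of variation was 0.108 with the block and 0.245 without. No replicates were copies (chi-square per degree of freedom at least 6.71).

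Members, role groups and lists were chosen with earlier results of these data known. Named genes were all called members (over 24 calls, the 12 highest and 12 lowest with at least 1 TPM), otherwise the 3 with the smallest p per direction, the 3 most abundant of each role, and CACNA1H, KCNK3, KCNMA1, KCNH2, SCN9A and others. Results for 6 members are not reported here by name; they remain in all counts. On simulated data 74.2%, 98.5% and 100.0% of genes changed by 0.5, 1 and 2 (log2) were recovered in cIDR against WT and 80.3%, 98.5% and 100.0% in batch 2, with 9 false calls each among 19731 genes. The changed genes were drawn from genes with an average log2 CPM above 1. Recovery at lower levels, where KCNQ3, CACNA1G and other members lie, was not simulated. Alternatives were DESeq2 1.42.0, other size factors and filters, limma 3.58.1 on log2(TPM + 1) and log2(TPM + 0.1), no block, fewer libraries, sums per batch, and each library or batch left out.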

Additional observations from a re-analysis of the deposited data

Results flagged for a closer look

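For 18 channel genes described by library, each group of 4 replicates was checked for a value far from the other 3 (the gap divided by the range of the group above Dixon's 95% critical value). Of 72 groups 32 had such a value, in 12 genes, and in all 32 it was replicate 2, the library of batch 2, and it was high. Most of these genes were described by library because they differed in batch 2, so the number marked follows from that choice. It is not to be set against the 1 group in 20 that chance marks, and the 4 libraries of batch 2 are not independent of each other.

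All 4 groups stood out for SCN4A (2.38, 1.34, 2.63 and 1.93 CPM in WT, FL, NCTAD and cIDR) and KCNN3 (6.19, 10.3, 8.10 and 10.4 CPM). In KCNN1 the WT, FL and NCTAD libraries stood out (7.89, 8.36 and 8.78 CPM), and in KCNAB2 those of WT, FL and cIDR (43.5, 47.9 and 53.5 CPM). WT, NCTAD and cIDR stood out in KCNG1 (2.38, 2.69 and 2.84 CPM), KCNIP4 (15.4, 17.4 and 17.7 CPM), CACNA1H (6.95, 7.42 and 9.08 CPM) and CACNB3 (12.3, 13.99 and 13.9 CPM). The others were FL and NCTAD in CACNA2D2 (145 and 142 CPM), WT and FL in KCNH6 (7.52 and 10.7 CPM), FL in KCNAB1 (25.0 CPM) and WT in KCNJ12 (7.36 CPM). No group of the 6 other genes checked had such a value, KCNH2 and SCN3B among them.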

How the results depend on the processing

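The 6 comparisons between groups gave 0 called channel genes in each alternative run, except in cIDR against WT, where DESeq2 gave 1, the 8 libraries alone gave 1 and leaving out single libraries gave 0 to 1 (1 without FL replicate 1), each time KCNAB1. Without the replicate block, called members were 0 in all 6, so the block changed no call. The interaction gave 0 in each alternative.

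Batch 2 differed in 49 members; limma on log2(TPM + 1) gave 30, on log2(TPM + 0.1) 27, and sums per batch 24, a test of 1 sum against 3. Leaving out libraries or batches gave 36 to 49. For batch 1 (21 members) limma gave 6 and 7, sums per batch 0, and leaving out libraries or batches 8 to 33 (8 without batch 2, 33 without batch 4). For batch 3 (13 members) these were 5, 4, 0 and 0 to 24 (7 without NCTAD or cIDR replicate 3, 0 without batch 2, 20 without batch 1, 24 without batch 4). For batch 4 (20 members) they were 2, 1, 0 and 0 to 26 (0 without batch 2). The cause was not tested. The median of all genes in the batch 2 contrast moved from 0.03 to 0.12 with log2(TPM + 0.1), which tests 22699 genes, and to 0.11 without a filter on low counts.

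Of 27 named genes called in batch 2, 18 kept the call without any library or batch and 9 lost it in at least 1; limma lost 7 and 8 and sums per batch 12. SCN9A reversed with limma (0.17 and 0.21, not called). The other reversals were of differences near 0 that were not called: KCNT1 with limma (0.014 and 0.014), SCN8A with other filters (0.0068, 0.0090 and 0.033), with limma (0.12 and 0.15) and without single libraries or batches (−0.013 to 0.038), and CACNG4 (−0.035 to 0.11). Without batch 1 CACNG4 and KCNH2 were called, and without FL replicate 4 KCNT1 was (−0.17). Members with few counts, such as KCNQ3, limit what can be seen at this depth.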

Other observations

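Of the 64 rows with a channel name that stayed below the count threshold, the highest single value was 35 counts, in KCNK6, and 15 had 0 counts in all 16 libraries. A count of 0 allows up to 3 counts in a library, which is 0.0535 to 0.0778 counts per 1 M at these depths, for counting error only. CACNA1I, the remaining T-type pore gene, reached at most 12 counts, and KCNN2, the small-conductance relative of KCNN1 and KCNN3, at most 10.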
